A study of Mus musculus with 32 samples.

Results

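The 32 primary melanomas were ordered by a score of hypoxia-responsive transcripts, and the 10 tumours with the highest score were compared with the 10 with the lowest. The score of a tumour was the mean of log2(TPM + 1) over 5 genes, Car9, Egln3, Ndrg1, Adm and Vegfa, where TPM is a relative transcript level that takes account of the length of each gene and of sequencing depth. The remaining 12 tumours, with intermediate scores, were kept out of this comparison. Both ends were chosen on measured values of the 5 genes, so these genes are described without a test. Oxygen was not measured, and the ends are called high-score and low-score tumours.

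Polyadenylated RNA was sequenced from tumours of 4 labelled groups of 8, both genotypes in both sexes. The labels give the Ecad genotype as Tyr::NrasQ61K;Cdkn2a-/+;°/°;Cdh1F/F and the ΔEcad genotype as Tyr::NrasQ61K;Cdkn2a-/+;Tyr::NRAS/°;Cdh1F/F. All the mice therefore carried an NRAS oncogene with the Q61K change under the tyrosinase promoter, which is active in melanocytes, had only 1 working copy of Cdkn2a, a tumour suppressor, and a floxed Cdh1, which encodes the epithelial adhesion molecule E-cadherin. In the methods of the study, the third element of the ΔEcad genotype is a Cre recombinase, Tyr::CreA/°, which deletes Cdh1 in melanocytes only, so that other cells of a ΔEcad tumour keep the gene. The mouse lines were on a C57BL/6J background, tumours arose without treatment, and the age at collection is not given in the sources used here. The high-score class held 4 Ecad male, 1 Ecad female, 3 ΔEcad male and 2 ΔEcad female tumours, and the low-score class 0, 4, 3 and 3.

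Cells sense oxygen through prolyl hydroxylases of the Egln family, which mark the alpha subunits of hypoxia-inducible factors (HIFs) for destruction by the Vhl ubiquitin ligase. When oxygen falls, the alpha subunits persist, pair with Arnt and bind short DNA elements near genes of glucose uptake, glycolysis, pH control, vessel growth and mitophagy. Among the score genes, Car9 encodes a carbonic anhydrase at the cell surface, Egln3 one of the prolyl hydroxylases, Ndrg1 a stress-induced cytoplasmic protein, Adm the vasodilator peptide adrenomedullin and Vegfa the principal growth factor of blood vessels. Growing melanomas often outgrow their vessels, and expression of this programme is widely used as a sign of poor oxygen supply.

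The core of the element to which HIFs bind reads ACGTG or GCGTG, and the promoters of the score genes were searched for it to show where the programme could reach them. The search covered 250 bases before each gene start in the RefSeq promoters of GRCm38.p6, on both strands, and a CACGTG palindrome counted as ACGTG on each strand. The core was present in the promoters of 11226 of 27025 genes (41.5%), and ACGTG in 18.5%. All 4 score genes matched in the promoter table held a core, and Car9, Egln3 and Vegfa held ACGTG. The following windows of 29 bases are printed 5′ to 3′ on the strand of the gene, with each core on either strand in capitals, and come from chr4:43506996-43507024 (Car9, plus strand), chr12:54204087-54204115 (Egln3, minus strand), chr17:46025358-46025386 (Vegfa, minus strand), chr7:110627555-110627583 (Adm, plus strand) and, for the glucose transporter gene Slc2a1, described below, chr4:119108697-119108725 (plus strand).
Car9: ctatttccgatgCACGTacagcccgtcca
Egln3: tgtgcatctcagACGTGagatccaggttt
Vegfa: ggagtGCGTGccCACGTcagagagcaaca
Adm: tttagaagcaagCACGCtggagagggagg
Slc2a1: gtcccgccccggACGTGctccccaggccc
Counted from the RefSeq starts, the cores began 18 bases before the gene start in Car9, 229 in Egln3, 211 in Vegfa, 90 in Adm and 36 in Slc2a1. RefSeq and GENCODE starts differ for some genes, and the Car9 and Vegfa windows lie inside the GENCODE gene models whose positions are given with the levels, the Vegfa window at an internal start. In Vegfa the first core of the window, GCGTG on the strand of the gene, began at 218 bases, and the second, at 211, lay on the opposite strand. The cores shown for Car9 and Adm also lay on the opposite strand. A match of 5 letters describes the sequence and is no evidence of binding.

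Total counts were 27897800 to 40559517 in the high-score and 28558005 to 63923086 in the low-score tumours, and 24036333 to 63923086 over all 32. A count of 0 allows up to 3 counts, and such floors cover counting error only. Sex-linked transcripts put the label of ΔEcad male 2 in doubt, with Xist at 6.41 TPM (at most 0.2 TPM elsewhere among males) and 0 counts over 4 Y-linked genes (1459 to 8800 elsewhere among males). This library ranked 18 by score and entered neither class. Melanocytic markers were plentiful in the high-score tumours, with 19066.7 to 46502.3 summed TPM over 12 genes. ΔEcad male 7, a low-score tumour, had 41.48 TPM of them and 8768.92 TPM of fibroblast and matrix markers, so the markers of the labelled tumour type were nearly absent there. ΔEcad male 1, the tumour with the lowest score, had 0.256% of its counts on the mitochondrial chromosome, against 1.29% to 3.89% in the other low-score tumours.

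The score averaged 6.17 ± 0.43 in the high-score, 5.29 ± 0.19 in the middle and 4.44 ± 0.44 in the low-score tumours (SD, n = 10, 12 and 10). The highest score belonged to Ecad male 4, at 6.94, and the lowest to ΔEcad male 1, at 3.47. The boundaries cut a continuous series. The last high-score tumour, ΔEcad male 3, stood at 5.68 and the first middle tumour, Ecad female 5, at 5.63. At the other end, ΔEcad female 7 stood at 5.04 just inside the middle and ΔEcad female 5 at 4.97 just inside the low-score class.

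The 5 genes did not contribute evenly. Egln3 (chr12:54178981-54203860) separated the classes completely, with 2.74 to 21.6 TPM in the low-score tumours (median 7.58) and 35.6 to 225.51 TPM in the high-score tumours (median 91.78). Ndrg1 (chr15:66929318-66969640) was at 6.06 to 51.35 TPM in the low-score tumours (median 22.37) and at 38.32 to 208.47 TPM in the high-score tumours (median 69.3), and 9 high-score tumours exceeded every low-score tumour. Car9 (chr4:43506966-43513729) had the lowest level of the 5, from 0.58 to 5.84 TPM in the low-score (median 2.24) and from 3.36 to 15.87 TPM in the high-score class (median 7.06), with 6 tumours above every low-score tumour. The classes overlapped most in the genes of the secreted factors. Vegfa (chr17:46016993-46032369) was at 5.83 to 112.33 TPM in the low-score tumours (median 61.5) and at 54.94 to 194.59 TPM in the high-score tumours (median 89.5), with 4 above every low-score tumour. Adm (chr7:110627661-110629820) was at 18.64 to 437.5 TPM in the low-score tumours (median 155.84) and at 144.85 to 771.83 TPM in the high-score tumours (median 261.6), with 2 above every low-score tumour. Its median in the middle tumours, 287.39 TPM, was above both. The gene models of Car9, Ndrg1 and Adm overlap other annotated genes, so their counts are uncertain to that extent.

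When the classes were chosen again from the other 4 genes, the mean log2(TPM + 1) of the gene left out was still 2.18 higher in the high-score class for Egln3, 1.39 for Ndrg1, 1.16 for Car9 and 0.90 for Vegfa, but 0.043 for Adm. Adm therefore hardly followed the other score genes across these tumours. The tumour with the lowest score illustrates the unevenness, since ΔEcad male 1 had 5.83 TPM of Vegfa, whereas the other low-score tumours had at least 18.75 TPM.

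**Figure D1:**
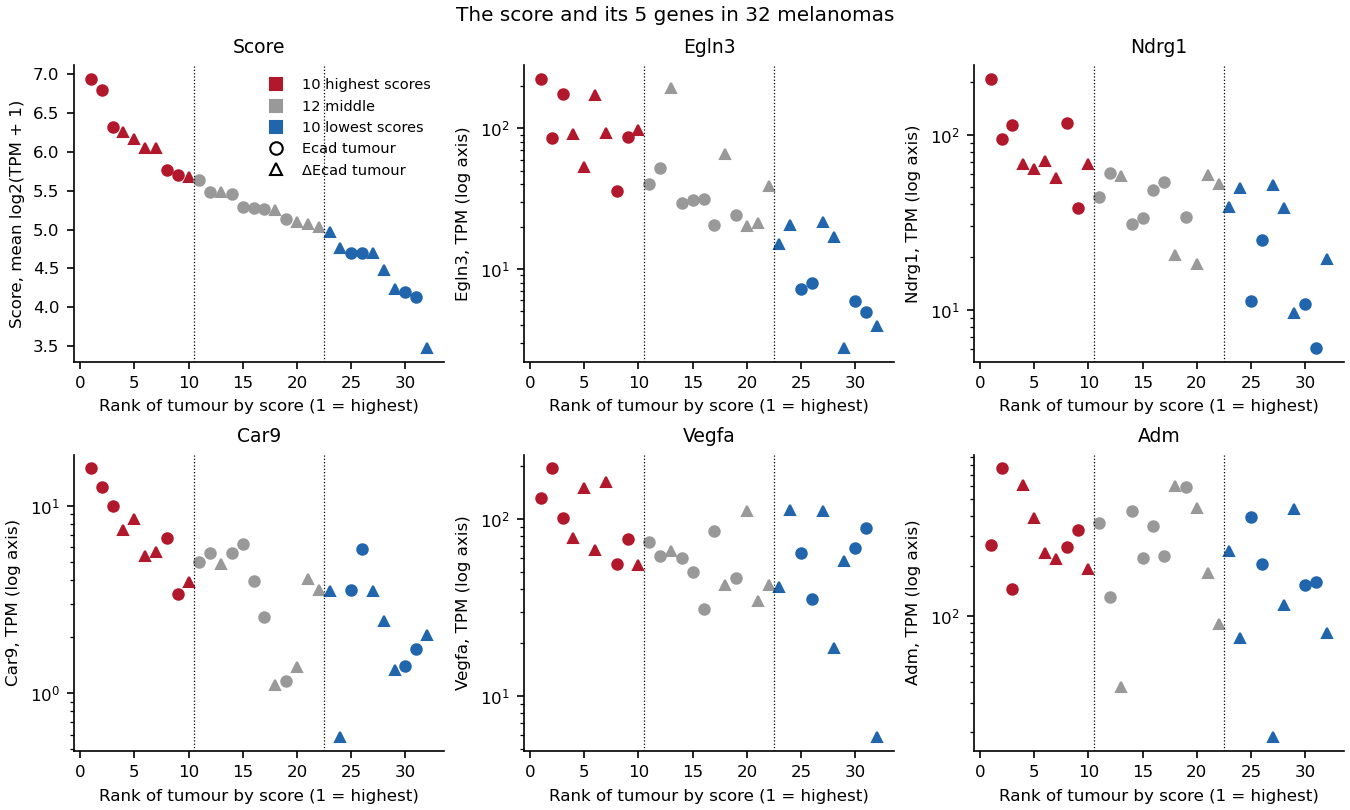
The score (left, mean log2(TPM + 1) of 5 genes) and the TPM of each score gene (log axes) in 32 melanomas in order of score rank, with dotted lines at the class boundaries, colour for class and shape for genotype. Egln3 separates the 10 highest from the 10 lowest tumours completely, while Adm reaches 437.5 TPM among the lowest.

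The labelled groups were spread over the score without a difference beyond the spread between tumours. Ecad males had a mean score of 5.76 ± 0.60 and Ecad females one of 5.10 ± 0.88, while the means of the ΔEcad tumours were 5.14 ± 0.93 for males and 5.21 ± 0.63 for females (SD, 8 tumours per group). In two-sided exact permutation tests, ΔEcad males differed from Ecad males by -0.62 (p = 0.135, adjusted over 4 tests p = 0.27), and 5 of the 8 lay below the Ecad male median. ΔEcad females differed from Ecad females by 0.11 (exact p = 0.768, adjusted p = 0.862), females from males by -0.66 in Ecad tumours (exact p = 0.103, adjusted p = 0.27) and by 0.07 in ΔEcad tumours (exact p = 0.862, adjusted p = 0.862). Without the library labelled ΔEcad male 2, both differences that include it were close to these, at -0.63 (exact p = 0.158) between the genotypes in males and 0.087 (exact p = 0.841) between the sexes in ΔEcad tumours. The genotype effect differed between the sexes by 0.73 (permutation p = 0.189). Of the high-score tumours 7 were male and 3 female, and of the low-score tumours 3 were male and 7 female (Fisher's exact p = 0.179). The 2 genotypes were at 5 and 5 in the high-score and at 4 Ecad and 6 ΔEcad in the low-score class (Fisher's exact p = 1). These p-values measure the spread between tumours, for which the labels name no animals.

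Among 15796 genes tested with edgeR, 25 (0.158%) were called higher in the high-score tumours and 0 (0.0%) lower, where a call required an adjusted p under 0.05 (Benjamini-Hochberg) with a log2 fold change beyond 1. In all, 1034 genes (6.55%) were higher and 1293 (8.19%) lower at an unadjusted p under 0.05. DESeq2 called 528 higher and 85 lower, and limma voom 613 and 88. Snu13, a component of the spliceosome and of nucleolar ribonucleoproteins, was the only gene below the adjusted threshold in the lower direction, with a log2 fold change of -0.96 that missed the minimum size. For 6 genes (0.038%) every high-score tumour exceeded every low-score tumour, and for 0 (0.0%) the reverse held. These were the called genes Edn1, Serpinb2, Pcsk5 and Tnfrsf26, and Bhlhe40 and 4833422C13Rik, which were not called and the last of which was named after its values were seen.

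The called genes included the main glucose transporter of hypoxic cells. Slc2a1, or Glut1 (chr4:119108711-119137983), was at 23.96 to 124.71 TPM in the low-score tumours (median 59.5) and at 99.28 to 334.74 TPM in the high-score tumours (median 184.7). The ranges overlapped, and 7 high-score tumours exceeded every low-score tumour. On the log2 scale the difference was 1.33 (SE 0.27, edgeR adjusted p = 0.0400), the smallest among the called genes. Atf3 (chr1:191170296-191218039), a transcription factor of the stress response, was at 6.54 to 32.47 TPM in the low-score and at 31.86 to 111.74 TPM in the high-score tumours, with medians of 20.3 and 64.0. It had the smallest p of all genes (log2 fold change 1.76, SE 0.26, edgeR adjusted p = 0.0192), and 9 high-score tumours lay above every low-score tumour.

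Genes of vessels, secretion and proteolysis followed. Edn1 (chr13:42301476-42307990), which encodes the vasoconstrictor endothelin-1, a growth factor of melanocytes, was at 0.3 to 1.63 TPM in the low-score and at 2.36 to 10.74 TPM in the high-score tumours, without overlap (log2 fold change 2.58, SE 0.42, edgeR adjusted p = 0.0248). Pcsk5 (chr19:17432319-17837632), a proprotein convertase, was at 0.12 to 0.95 TPM in the low-score and at 1.44 to 9.0 TPM in the high-score tumours, also without overlap (log2 fold change 2.77, SE 0.50, edgeR adjusted p = 0.0293). Serpinb2 (chr1:107511423-107535478), an inhibitor of plasminogen activators made by monocytes and epidermis, was at 0 to 3.42 TPM in the low-score and at 7.61 to 75.31 TPM in the high-score tumours. It was 4.73 higher on the log2 scale (SE 0.80, edgeR adjusted p = 0.0248). Tnfrsf26 (chr7:143607659-143628722), a receptor of the tumour necrosis factor family, was at 0.13 to 2.72 TPM in the low-score and at 5.15 to 18.07 TPM in the high-score tumours (log2 fold change 2.73, SE 0.51, edgeR adjusted p = 0.0334). Gene models of Atf3, Serpinb2, Tnfrsf26 and Slc2a1 overlap others.

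Some called genes are known from inflammation, among them 2 of the neutrophil list described below. Cxcr2 (chr1:74153989-74161246), the receptor through which neutrophils sense chemokines, was at 0 to 0.91 TPM in the low-score and at 0.87 to 32.73 TPM in the high-score tumours, with 9 of the latter above every low-score tumour (log2 fold change 4.56, SE 0.80, edgeR adjusted p = 0.0259). S100a8 (chr3:90668978-90670035), a subunit of calprotectin that is abundant in neutrophils and in stressed epidermis, was at 1.11 to 54.45 TPM in the low-score and at 42.46 to 2137.43 TPM in the high-score tumours (log2 fold change 4.66, SE 0.91, edgeR adjusted p = 0.0389). Hcar2 (chr5:123863570-123865499), the receptor of nicotinic acid and hydroxybutyrate on myeloid and other cells, was at 0.04 to 5.07 TPM in the low-score and at 1.05 to 268.7 TPM in the high-score tumours (log2 fold change 5.06, SE 0.88, edgeR adjusted p = 0.0259). Of the high-score tumours 8 exceeded every low-score tumour. Il1f9, which encodes an interleukin-36 of epithelia, had a median of 0.52 TPM in the low-score and 28.5 TPM in the high-score tumours (log2 fold change 4.82).

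The other called genes have diverse roles, some of them in epithelia. Lama3, a chain of the laminin that anchors basal keratinocytes, was at 0.03 to 0.72 TPM in the low-score and at 0.13 to 21.83 TPM in the high-score tumours (log2 fold change 4.67, SE 0.87, edgeR adjusted p = 0.0334). Only 6 high-score tumours exceeded every low-score tumour, and 2 lay below the low-score median. Ppp1r13l (chr7:19359749-19378533), an inhibitor of p53 that is also found at desmosomes, had medians of 6.6 and 31.6 TPM (log2 fold change 2.05, SE 0.37, edgeR adjusted p = 0.0293). Shroom3 (chr5:92683435-92965318), which drives apical constriction of epithelial cells, rose from a median of 0.14 to 1.57 TPM (log2 fold change 3.29, SE 0.56, edgeR adjusted p = 0.0248). Acsbg1, an acyl-CoA synthetase, had medians of 1.95 and 15.1 TPM (log2 fold change 3.76), and Vav3 (chr3:109340653-109685698), a guanine nucleotide exchange factor, had medians of 2.08 and 12.98 TPM (log2 fold change 2.14). Jag2, a Notch ligand of basal epidermis (log2 fold change 3.26), Tmem79, a protein of cornifying keratinocytes (2.91), Rdh12, a retinol dehydrogenase (3.09), and Elmo3 (2.13), Crispld2 (3.05), Rhbdl2 (2.97), Enpp6 (3.37), Fam107a (4.95), Arhgef4 (2.87) and Coch (4.92) completed the list, with edgeR adjusted p-values up to 0.0458. All 10 high-score tumours lay above the low-score median for the called genes other than Hcar2, Fam107a and Arhgef4, for which 9 did, and Lama3, Tmem79, Jag2 and Coch, for which 8 did. These counts come from the same tumours that called the genes and were largely given by the call.

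**Figure D2:**
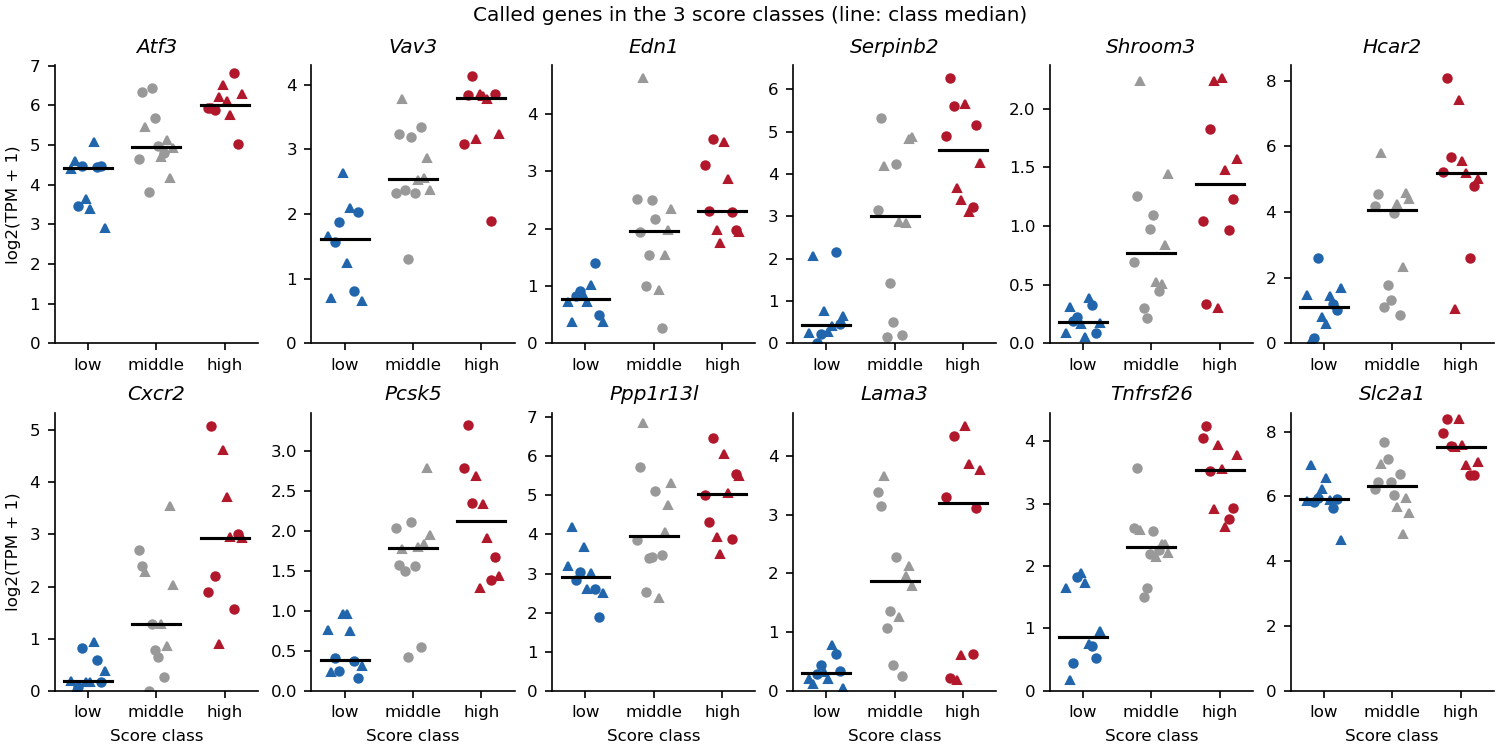
Levels of 12 called genes, as log2(TPM + 1), in the low-score (blue), middle (grey) and high-score (red) tumours, with circles for Ecad, triangles for ΔEcad and a line at each class median. Edn1, Serpinb2, Pcsk5 and Tnfrsf26 show no overlap between the low-score and high-score tumours, whereas Lama3 has high-score tumours down to 0.13 TPM.

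Values of the called genes within each sex and genotype come from the same 20 tumours that called them, so their direction there was largely given and is no further evidence. The difference of mean log2(TPM + 1) over the 25 genes ran from 0.87 to 5.38 within males, females, Ecad and ΔEcad tumours. For Slc2a1 the medians were 73.6 and 181.5 TPM in 3 low-score and 7 high-score males, and 58.9 and 191.6 TPM in 7 low-score and 3 high-score females. In the 12 middle tumours, which the comparison had not used, the medians of all 25 genes lay between those of the low-score and high-score tumours, as did 51.1% of all genes. The 25 genes were called for a wide gap between the classes, so a middle median inside it was largely given. Splitting these 12 into 6 with higher and 6 with lower scores, 0.293 apart on average, gave 0 called genes of 16379 with edgeR (451 at an unadjusted p under 0.05). Of the 25 genes 19 were higher in the 6 with higher scores, against 50.3% of all genes.

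Egln3, a prolyl hydroxylase of the oxygen-sensing pathway, was a score gene and had no test. None of the other listed genes of the pathway passed the test. Of 9 members tested 0 were called, and the median log2 fold change was -0.05, against -0.11 over all genes. At an unadjusted p under 0.05 stood 2 higher and 1 lower, against 6.55% and 8.19% of all genes. Hif1a, the widely expressed alpha subunit, was at a median of 50.7 TPM in the low-score and 57.5 TPM in the high-score tumours (edgeR adjusted p = 0.967). Epas1, which encodes the alpha subunit HIF-2α, had medians of 19.9 and 60.2 TPM and a range of 4.8 to 39.93 TPM in the low-score against 26.98 to 117.34 TPM in the high-score tumours. Its log2 fold change of 1.19 (SE 0.33) had an edgeR adjusted p of 0.128, although 8 high-score tumours exceeded every low-score tumour. Hif3a, a further alpha subunit, was near the floor, with medians of 0.025 and 0.395 TPM (log2 fold change 2.81, edgeR adjusted p = 0.192). Vhl had medians of 31.8 and 27.1 TPM (log2 fold change -0.63, edgeR adjusted p = 0.287).

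Among 22 genes of glucose uptake and glycolysis, Slc2a1 was called and 18 had positive fold changes, with a median of 0.34, whereas 39.9% of all genes tested were positive. At an unadjusted p under 0.05 stood 5 members, all higher, against 6.55% of all genes. After Slc2a1 came Pfkp, the platelet isoform of phosphofructokinase, at 10.28 to 57.13 TPM in the low-score and 27.37 to 130.55 TPM in the high-score tumours (log2 fold change 1.62, edgeR adjusted p = 0.0735). Hk2, the inducible hexokinase, had medians of 15.3 and 41.0 TPM (log2 fold change 1.27, edgeR adjusted p = 0.192), and Pdk1, a kinase that restrains pyruvate dehydrogenase, 12.3 and 26.1 TPM (0.80, edgeR adjusted p = 0.231). Slc2a3, the neuronal and leukocyte glucose transporter, had medians of 1.75 and 4.0 TPM but reached 117.25 TPM in a high-score tumour (log2 fold change 2.72, edgeR adjusted p = 0.176). The abundant enzymes differed less, with Ldha at medians of 507.2 and 859.3 TPM, Pgk1 at 437.9 and 595.4 TPM and Aldoa at 1315 and 1728 TPM (edgeR adjusted p = 0.544, 0.868 and 0.735). The summed level of the list was 2533 to 11862 TPM in the low-score and 6441 to 20895 TPM in the high-score tumours, with medians of 8294 and 8962, and 3 high-score tumours exceeded every low-score tumour.

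Of 39 other established targets of hypoxia, 0 were called and 24 had positive fold changes with a median of 0.08, against 39.9% of all genes tested. At an unadjusted p under 0.05, 8 were higher, against 6.55% of all genes. Bhlhe40, a circadian repressor induced by HIF-1, did not overlap between the classes, with 20.79 to 125.44 TPM in the low-score and 127.67 to 421.41 TPM in the high-score tumours (log2 fold change 1.10, SE 0.31, edgeR adjusted p = 0.123). Ndufa4l2, which dampens mitochondrial respiration, was at medians of 19.5 and 147.7 TPM (log2 fold change 2.60, edgeR adjusted p = 0.0744). Car12, a second membrane carbonic anhydrase, was at medians of 0.525 and 17.04 TPM, but only 7 high-score tumours exceeded the low-score median (log2 fold change 4.19, edgeR adjusted p = 0.0759). Stc2, a secreted glycoprotein, had medians of 0.65 and 3.99 TPM (2.48, edgeR adjusted p = 0.153), Ero1l, an oxidase of the endoplasmic reticulum, 80.4 and 144.8 TPM (1.5, edgeR adjusted p = 0.208) and Plin2, a coat protein of lipid droplets, 72.4 and 189.4 TPM (0.85, edgeR adjusted p = 0.224). Bnip3, a mitophagy receptor, had medians of 69.5 and 129.7 TPM (0.84, edgeR adjusted p = 0.264), and Ddit4, an inhibitor of mTOR signalling, 72.4 and 173.4 TPM (0.89, edgeR adjusted p = 0.288). The remaining members had an unadjusted p of 0.05 or more, and 15 of the 39 had negative fold changes. Among these, Lox, which crosslinks collagen, had medians of 3.48 and 39.2 TPM but reached 1899 TPM in a low-score tumour (edgeR adjusted p = 0.454), and Hilpda, a lipid droplet protein, had medians of 108.0 and 92.8 TPM (edgeR adjusted p = 0.569).

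The HIF core was found in the promoters of 18 of 21 glycolysis genes (85.7%) and 22 of 27 of the other hypoxia targets (81.5%) present in the promoter table, compared with 41.5% of all genes. The hypoxia targets were listed for their known response, so a high share was foreseeable and says nothing about these tumours. A gene with several annotated starts counted if any of them held a core. Among the called genes it was found in 12 of 21 (57.1%), with ACGTG in 5 (23.8%). The share was 3 of 8 (37.5%) for the keratinocyte markers and 5 of 12 (41.7%) for the neutrophil and acute inflammation genes described below. The mitophagy gene Bnip3 is shown because its promoter holds several cores close together, in a window at chr7:138909597-138909625 on the minus strand that includes a palindrome.
Bnip3: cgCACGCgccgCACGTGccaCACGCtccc

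Of 11 genes for angiogenic ligands other than the score genes, Edn1 was called. In all, 8 of the 11 had positive fold changes (median 0.33), against 39.9% of all genes tested. Pgf, a ligand of Flt1, had medians of 3.51 and 24.7 TPM but reached 63.63 TPM in the low-score tumours (log2 fold change 1.97, edgeR adjusted p = 0.270). Vegfb had almost equal medians of 179.7 and 180.4 TPM, but its fitted log2 fold change was -0.62 to -0.40 when single tumours were left out. At an unadjusted p under 0.05, 2 ligand genes were higher and 1 lower, against 6.55% and 8.19% of all genes. Of 13 receptor genes 0 were called (median 0.20), and Flt1, a receptor of Vegfa, had medians of 3.83 and 8.37 TPM (0.87, edgeR adjusted p = 0.264), with Ramp3, a subunit of the adrenomedullin receptor, at 3.66 and 9.48 TPM (1.33, edgeR adjusted p = 0.295). Endothelial markers were 0 of 12 called and 10 positive (median 0.55), against the same 39.9% of all genes. Their summed levels were 116.4 to 1190 TPM in the low-score and 335.6 to 909.7 TPM in the high-score tumours. Haemoglobin and related red blood cell genes, 5 in number, had a median of -0.18 and 0 calls. In bulk tissue, fewer cells of a type and less RNA per cell cannot be told apart.

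No gene of respiration passed the test. All 20 nuclear genes of oxidative phosphorylation had negative fold changes (median -0.44), against 60.1% of all genes tested, 8 at an unadjusted p under 0.05 against 8.19% of all genes, and 0 were called. Cox4i1, a subunit of cytochrome oxidase, had medians of 1262 and 876.1 TPM (log2 fold change -1.08, edgeR adjusted p = 0.224). Ndufv2, of complex I, had a fold change of -1.05 (edgeR adjusted p = 0.184), although its medians of 159.0 and 157.9 TPM were alike, with low-score tumours reaching 553.03 TPM and high-score tumours 223.78 TPM. Of the 11 mitochondrially encoded genes tested 0 were called (median -0.04). Of 22 cell cycle genes 21 had negative fold changes (median -0.66) against the same 60.1%, and 0 were called, with Mcm2, of the replicative helicase, at medians of 33.8 and 23.4 TPM (-1.09, edgeR adjusted p = 0.158). The median of the cell cycle list turned positive, at 0.12, when keratinocyte and melanocytic levels were included as covariates.

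Of 17 genes of the ATF4 stress response only Atf3 was called, and the median was -0.13. Slc7a11, the cystine transporter, had medians of 0.35 and 1.91 TPM (log2 fold change 2.34, edgeR adjusted p = 0.109), Chac1, which degrades glutathione, 2.01 and 6.15 TPM (2.02, edgeR adjusted p = 0.135) and Trib3 6.44 and 12.2 TPM (1.01, edgeR adjusted p = 0.338). The remaining members were mostly negative, so that 6 of 17 were positive in all, against 39.9% of all genes. Of 12 genes of the unfolded protein response 10 were negative (median -0.24), and of 12 p53 targets 9 were (median -0.18), with 0 calls in either list, against 60.1% negative over all genes.

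Melanocytic genes were 0 of 12 called (median -0.20), with 5 positive, against 39.9% of all genes. Of the 6 invasive and 6 neural crest-like genes 0 were called. Among the latter, L1cam, a neural adhesion molecule, had medians of 8.61 and 35.6 TPM (log2 fold change 1.59, edgeR adjusted p = 0.173) and Ngfr, the low-affinity nerve growth factor receptor, 3.24 and 13.6 TPM (1.90, edgeR adjusted p = 0.287), whereas Tmem176b had 618.6 and 485.4 TPM (edgeR adjusted p = 0.280). Cdh1 was at 0.17 to 151.15 TPM in the low-score and at 0.79 to 281.85 TPM in the high-score tumours, with medians of 7.36 and 88.2 TPM (edgeR adjusted p = 0.533). Its log2 fold change was 1.02 to 1.83 when single tumours were left out. With keratinocyte and melanocytic levels as covariates it was -1.74 (edgeR adjusted p = 0.659). Grpr, the receptor of gastrin-releasing peptide on which the study centres, had medians of 0.01 and 0.195 TPM and maxima of 262.95 TPM in the low-score and 206.06 TPM in the high-score tumours, and had too few counts in most tumours to be tested.

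The list of neutrophil and acute inflammation genes, here the neutrophil list for short, had the most calls. Of 14 members Cxcr2 and S100a8 were called, against 0.158% of all genes. Positive fold changes were found for 13 (median 3.59), against 39.9% of all genes. At an unadjusted p under 0.05, 12 were higher, against 6.55% of all genes. S100a9, the partner of S100a8 in calprotectin, was at 0 to 103.33 TPM in the low-score and at 68.64 to 6258.07 TPM in the high-score tumours (log2 fold change 4.81, edgeR adjusted p = 0.0759). Retnlg, a granule protein of neutrophils, had medians of 1.36 and 19.5 TPM (4.39, edgeR adjusted p = 0.0853). The chemokine genes Cxcl2 and Cxcl3, ligands of Cxcr2, had medians of 0.38 and 16.7 TPM (6.14, edgeR adjusted p = 0.0627) and of 0.04 and 1.61 TPM (6.46, edgeR adjusted p = 0.0652), and Il1b had 1.54 and 9.51 TPM (4.72, edgeR adjusted p = 0.135). Cxcl1 was the exception, reaching 249.67 TPM in a low-score tumour.

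The summed level of the neutrophil list was 7.18 to 373.37 TPM in the low-score tumours (median 104.3) and 209.4 to 11242 TPM in the high-score tumours (median 957.7). It exceeded every low-score tumour in 6 high-score tumours, and lay below every high-score tumour in 8 low-score tumours. The highest sums were 11242 TPM in Ecad female 4, 5399 TPM in Ecad male 4 and 4737 TPM in ΔEcad male 4, which ranked 2, 1 and 5 by score. Within the middle tumours only 3 of the 14 genes were higher in the 6 with higher scores. Of 12 macrophage markers 0 were called (median 0.48), of 12 T cell markers 0 (0.72), and of 16 interferon-response genes 0 (1.36). Of the last, 7 were higher at an unadjusted p under 0.05, against 6.55% of all genes. Gbp2, an interferon-induced GTPase, had medians of 17.7 and 37.7 TPM with a maximum of 2170 TPM (log2 fold change 3.77, edgeR adjusted p = 0.111), and Cd274, which encodes PD-L1, 6.21 and 21.3 TPM (2.51, edgeR adjusted p = 0.135). In the middle tumours 0 of the 16 interferon genes were higher in the 6 with higher scores.

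**Figure D3:**
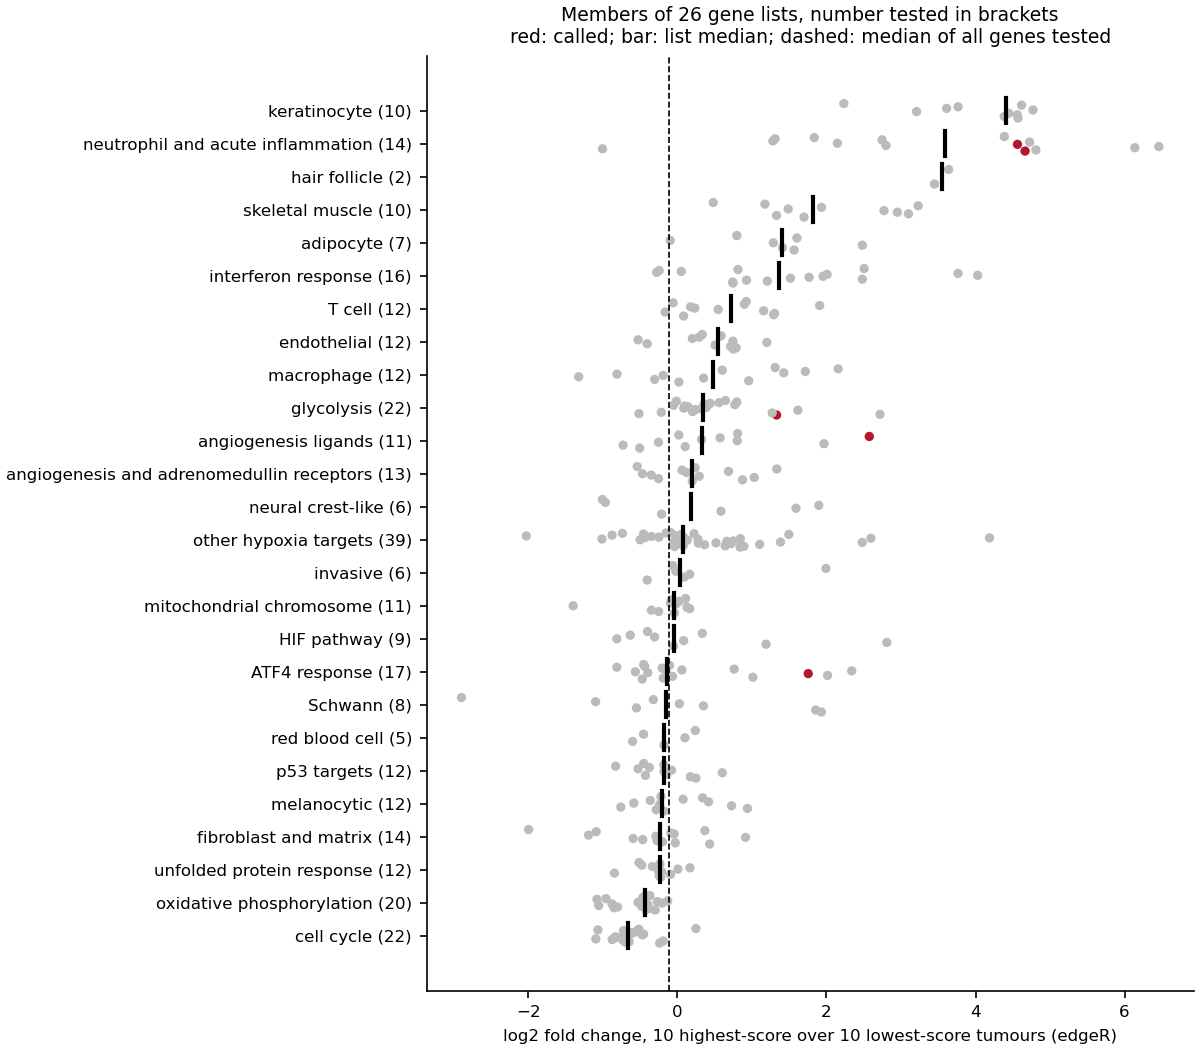
Log2 fold change (edgeR, 10 highest over 10 lowest scores) of every tested member of 26 gene lists, with called genes in red, a bar at each list median and a dashed line at the median of all genes, -0.11. Keratinocyte (4.42) and neutrophil (3.59) medians are the highest, and oxidative phosphorylation (-0.44) and cell cycle (-0.66) medians the lowest.

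Keratinocyte markers were plentiful in some high-score tumours and scarce in others, and none passed the test. The summed level of 12 keratinocyte markers was 2.04 to 2654 TPM in the low-score tumours (median 6.96) and 2.11 to 26443 TPM in the high-score tumours (median 5476), and exceeded every low-score tumour in 6 high-score tumours. The basal keratins Krt5 and Krt14 had medians of 0.05 and 0.195 TPM in the low-score and 1487 and 2764 TPM in the high-score tumours, and Dsp, of desmosomes, 0.025 and 120.4 TPM. Both keratins were listed at 0 in the lowest tumour of each class. All 10 markers tested had positive fold changes (median log2 fold change 4.42), against 39.9% of all genes. At an unadjusted p under 0.05, 7 were higher, against 6.55% of all genes. None was called (edgeR adjusted p from 0.208 to 0.298 for Krt5, Krt14, Dsp and Krt10). When single tumours were left out, the log2 fold change was 3.41 to 4.49 for Sbsn and 4.18 to 6.15 for Trp63. The values of the called genes with keratinocyte and melanocytic levels as covariates are given below.

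No gene of the other tissue marker lists was called. The fibroblast and matrix list summed to 120.6 to 17518 TPM in the low-score (median 877.8) and 1155 to 5588 TPM in the high-score tumours (median 2358). In 8 of the 10 low-score tumours it lay below every high-score tumour, the exceptions being ΔEcad female 3, at 17518 TPM, and ΔEcad male 7, at 8769 TPM. In the fit, by contrast, 11 of its 14 genes had negative fold changes (median -0.23), against 60.1% of all genes. At an unadjusted p under 0.05 stood 1 of the 11, against 8.19% of all genes. Skeletal muscle markers had medians of 6.89 and 1016 TPM and adipocyte markers 127.5 and 595.4 TPM in the low-score and high-score tumours, with 0 calls in each list, and Schwann cell markers 1432 and 1445 TPM. Hair follicle markers could be tested for 2 genes, both positive and neither called. The parts of fibroblast, muscle and fat content in the differences between the classes were not tested.

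**Figure D4:**
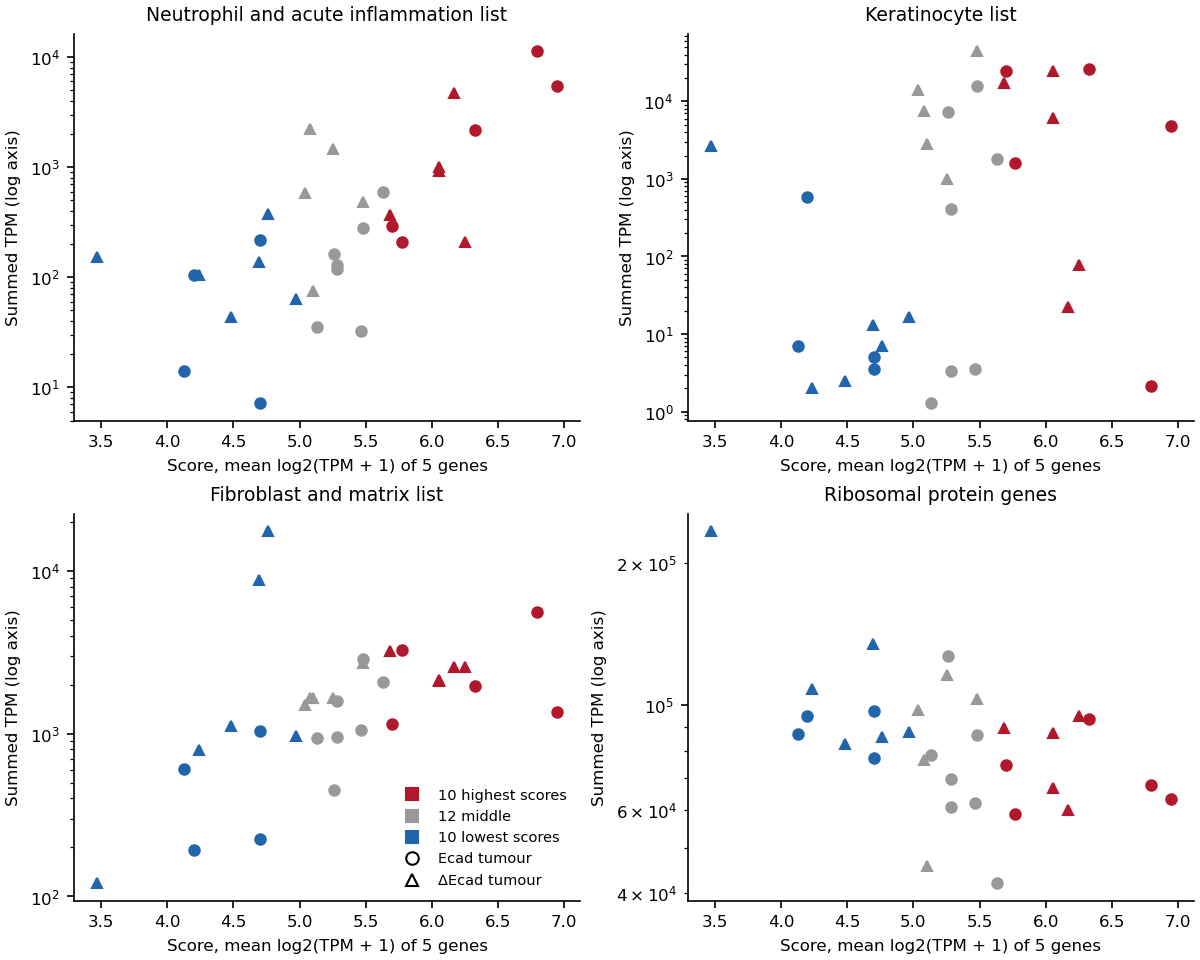
Summed TPM (log axes) of the neutrophil, keratinocyte and fibroblast lists and of 83 ribosomal protein genes against the score in 32 tumours, with colour for class and shape for genotype. Neutrophil sums have a median of 104.3 TPM in the lowest and 957.7 TPM in the highest class, and keratinocyte sums span 2.11 to 26443 TPM within the highest class.

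With keratinocyte and melanocytic scores as covariates, edgeR called 118 genes (0.747%) higher and 346 (2.19%) lower, and 14 of the 25 genes called without covariates were among them. Atf3 (log2 fold change 1.75), Vav3 (2.57), Edn1 (1.86), Serpinb2 (4.39), Hcar2 (5.04), Cxcr2 (4.60), Pcsk5 (3.12), Tnfrsf26 (2.88), Il1f9 (4.33), S100a8 (4.44) and Slc2a1 (1.69, edgeR adjusted p = 0.0132) kept their call, as did Acsbg1, Rdh12 and Crispld2. Of the 11 genes that lost it, 4 had a fold change under 1, Lama3 at 0.80 (edgeR adjusted p = 0.816), Jag2 at 0.65 (edgeR adjusted p = 0.760), Tmem79 at 0.51 (edgeR adjusted p = 0.692) and Coch at 0.79 (edgeR adjusted p = 0.842). The other 7 stayed above 1 and missed the adjusted threshold. They were Fam107a at 3.77 (edgeR adjusted p = 0.198), Shroom3 at 2.49 (edgeR adjusted p = 0.0597), Enpp6 at 1.62, Elmo3 at 1.37, Rhbdl2 at 1.31, Ppp1r13l at 1.12 (edgeR adjusted p = 0.192) and Arhgef4 at 1.03. The neutrophil list then had 10 of 14 members called higher and glycolysis 3 of 22, namely Slc2a1, Pfkp (1.84) and Slc2a3 (5.08). Bhlhe40 (1.31) and Ero1l (1.82) were called among 39 other hypoxia targets, and Slc7a11 (3.77) beside Atf3 in the ATF4 list. Of the hypoxia targets, Ndufa4l2 fell to 0.91 (edgeR adjusted p = 0.516) and Car12 to 0.12 (edgeR adjusted p = 0.983). In the opposite direction 6 of 20 oxidative phosphorylation genes were called lower, including Ndufv2 (-1.64) and Cox4i1 (-1.57).

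The number of calls depended strongly on the tumours, on the genes of the score and on the covariates. With genotype and sex as covariates edgeR called 0 genes (2457 at an unadjusted p under 0.05), with sex alone 9 higher and 2 lower, and with total count as a covariate 0 (2752 at an unadjusted p under 0.05). The low-score class held the most deeply sequenced tumours and more females, as given above. Choosing the classes without Egln3 or without Ndrg1 left 0 calls, and without Adm 364 higher and 41 lower. Without Egln3 the median of the keratinocyte list was -0.42, whereas that of the neutrophil list was 2.62, of glycolysis 0.45 and of oxidative phosphorylation -0.40. Leaving out single tumours moved the number called higher from 25 to 0 without Ecad female 1 or ΔEcad female 1, 1 without ΔEcad female 5, 2 without Ecad female 8, 7 without Ecad male 4, Ecad male 6 or Ecad female 7, 8 without ΔEcad male 3, 9 without Ecad male 2, 13 without ΔEcad female 4, 14 without Ecad female 3 or ΔEcad male 8, 55 without ΔEcad male 6 and 69 without ΔEcad male 1.

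**Figure D5:**
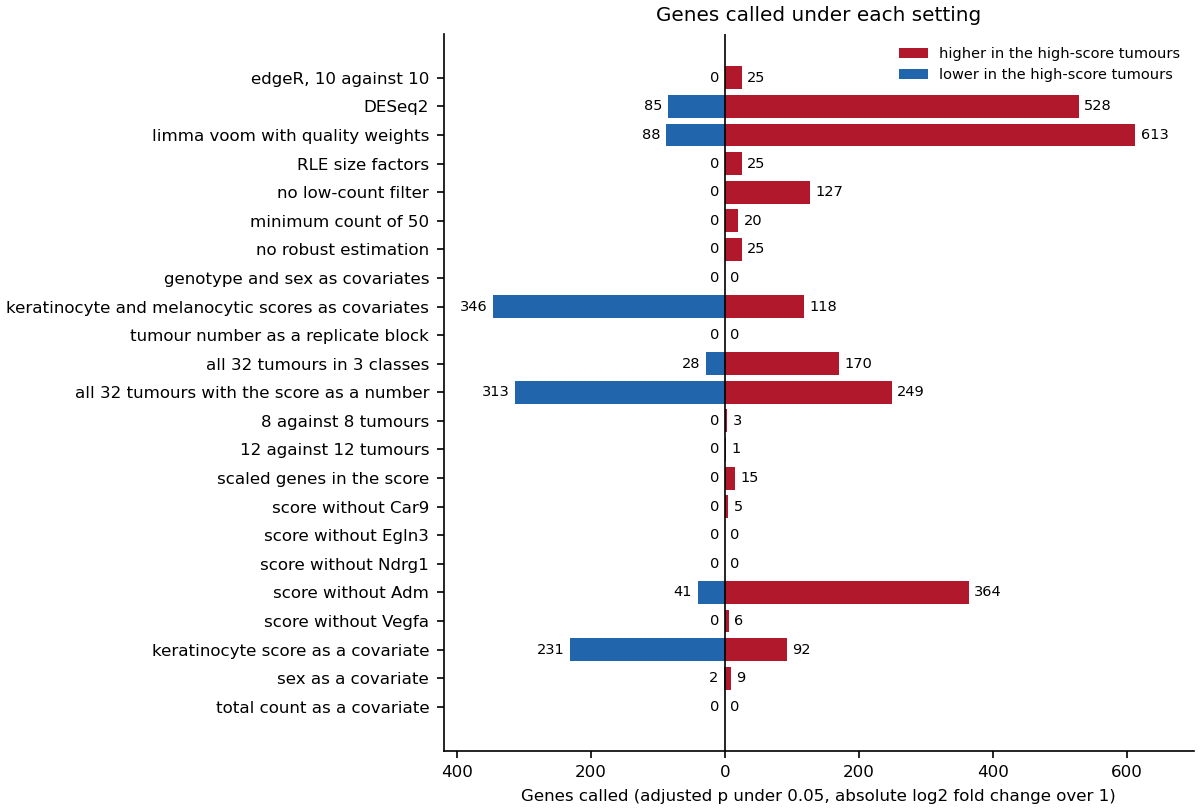
Number of genes called higher (red, to the right) and lower (blue, to the left) in the high-score tumours under each setting, starting at 0. The count called higher ranges from 0, for example with total count as a covariate, to 613 with limma voom.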

How the data were processed

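The authors made stranded libraries of polyadenylated RNA, sequenced them paired-end, mapped the reads with STAR to mm10 (GRCm38.p5) with the GENCODE M13 annotation and, per the labels, checked reads with FastQC 0.11.5. They deposited raw counts per gene and TPM values, each for 50600 genes. Whether counting used the strand is not given in the sources used here, so overlapping genes are uncertain. GENCODE M21 (GRCm38) supplied gene symbols and positions, naming 50376 identifiers and leaving 224 unnamed. The score used deposited TPM with a pseudocount of 1, and fold changes came from the counts.

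The classes were compared with edgeR 4.0.16 (R 4.3.3; two-sided quasi-likelihood test, robust, TMM factors, filterByExpr by class, no covariates; common dispersion 0.575). The 5 score genes were removed before the Benjamini-Hochberg adjustment. A gene was called when its adjusted p was under 0.05 and its log2 fold change exceeded 1 in size. The score was compared between labelled groups by exact permutation with Benjamini-Hochberg adjustment over 4 tests, and the interaction by permuting sex within each genotype 100000 times. Gene lists were described by counts, medians and summed TPM, without a test.

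Named were the score genes, the 12 called genes with the smallest p, the 4 members of each list with the smallest p, and Hif1a, Epas1, Vhl, Cdh1 and Grpr, with other list members and called genes by value. The members, the lists and the comparisons were chosen with earlier results of these data known. Alternatives were DESeq2 1.42.0, limma 3.58.1, other size factors, filters, scores, class sizes and covariates, the tumour number as a block, and each tumour left out. Keratinocyte score, sex and total count as single covariates, and the 83 ribosomal protein genes taken by symbol, were chosen after seeing the data. Promoters were taken from RefSeq (GRCm38.p6). Python 3.11.15 (numpy 2.4.6, scipy 1.17.1, pandas 2.3.3, matplotlib 3.10.9) was used for tables and figures.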

Additional observations from a re-analysis of the deposited data

Results flagged for a closer look

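In groups of 8 or 10 tumours, the highest and lowest values of the score, its genes, the called genes and the marker sums were examined for a gap to the nearest tumour that was large against the range of the group. Of 96 groups 4 held such a value, and chance gives about 1 in 20 groups. Ndrg1 was at 3.40 on the log2(TPM + 1) scale in ΔEcad female 4, against 5.32 in the next lowest ΔEcad female. Vav3 was at 1.89 in Ecad male 3, against 3.09 in the next lowest high-score tumour, and so fell within the low-score range. Arhgef4 was at 1.22 in ΔEcad male 7, against 0.705 in the next highest low-score tumour. The melanocytic markers of ΔEcad male 7 summed to 5.41 on the log2(TPM + 1) scale, against 13.26 in the next lowest low-score tumour. Without ΔEcad male 7, edgeR called 23 genes higher and 1 lower, 16 of them among the 25 called with it.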

How the results depend on the processing

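Of 1045 results of the called genes over the alternatives, 520 kept direction and call, 523 kept the direction but not the call and 2 reversed. Acsbg1 went to -0.25 and Tmem79 to -0.093 when Egln3 was left out of the score. Of 1551 results of a selection of the other named genes, 1446 kept both, 104 gained a call and 1 reversed, Car12 at -0.097 with the keratinocyte score as a covariate. Some named genes outside this selection reversed more often, for example Hif1a in 11, Lox in 11 and Cxcl1 in 12 of 43 alternatives. RLE size factors and estimation without robustness called 25 genes higher and 0 lower, and a minimum count of 50 called 20 and 0.

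More genes were called higher with DESeq2 (528, and 85 lower, with all 25 shared), limma voom with quality weights (613 and 88, with 22 shared), no low-count filter (127 and 0), all 32 tumours in 3 classes (170 and 28), the score as a number (249 and 313), keratinocyte and melanocytic scores (118 and 346), the keratinocyte score alone (92 and 231) and a score without Adm (364 and 41). Fewer were called with 8 against 8 tumours (3), 12 against 12 (1), scaled genes in the score (15), a score without Car9 (5), Egln3 (0), Ndrg1 (0) or Vegfa (6), genotype and sex (0), sex (9, and 2 lower) and total count (0). Without a minimum fold, 25 were called higher and 1 lower. Leaving out 1 tumour gave 0 to 69 called higher and 0 to 3 lower. The cause of these shifts was not tested.

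With the tumour number as a replicate block 0 genes were called higher (1375 at an unadjusted p under 0.05). The numbers name tumours and do not pair them: of 11 same-number pairs across the classes 2 correlated above 0.1 (-0.30 to 0.44), and 1 of 20 tumours was closest to its own number.

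The keratinocyte list median went from 4.42 to -0.49 with keratinocyte and melanocytic scores, -0.10 with the keratinocyte score alone and -0.42 without Egln3, and the cell cycle median from -0.66 to 0.12 and 0.13 with the first and second. The keratinocyte score was the mean level of the same list, so the values of this list with that covariate were largely fixed in advance. The difference in score between the sexes in ΔEcad tumours was -0.11 on mean log2 CPM against 0.07 (exact p = 0.77). With limma voom with quality weights the median of all genes tested moved from -0.11 to 0.06. Low counts in most tumours limit genes such as Grpr and Hif3a.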

Other observations

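Ribosomal protein genes had mostly negative fold changes in the high-score tumours and none passed the test. This group was taken by symbol after its values were seen. Of 83 genes tested, 81 had negative fold changes (median -0.82), against 60.1% of all genes, 59 were lower at an unadjusted p under 0.05, against 8.19% of all genes, and 0 were called by edgeR. Their sum was 77333 to 232973 TPM in the low-score tumours (median 91182) and 58984 to 95050 TPM in the high-score tumours (median 71155), and the highest value belonged to ΔEcad male 1. With keratinocyte and melanocytic scores as covariates 42 were called lower, against 2.19% of all genes, with a median of -1.21. Among genes with negative fold changes these stood beside the 20 genes of oxidative phosphorylation and Snu13.

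Nerve and muscle markers varied within the classes. Mbp, of myelin, had medians of 1.21 and 5.39 TPM in the low-score and high-score tumours, and Mag 0.455 and 0.685 TPM. The fitted log2 fold change of Mag was nevertheless negative, at -3.27 to -0.17 when single tumours were left out. None of the 8 Schwann cell genes was called. Ttn, the giant protein of the sarcomere, had medians of 0.005 and 1.3 TPM. Cd36, a fatty acid transporter of fat and vessel cells, had medians of 11.3 and 54.1 TPM. Among macrophage genes, Arg1, arginase 1, had medians of 4.56 and 26.9 TPM and Cd14 of 23.3 and 40.0 TPM, and neither was called. The matrix gene Tnc had medians of 7.49 and 51.4 TPM and was not called.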
